A study of Homo sapiens with 6 samples.

Results

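The SOX genes of SKOV3 cells were followed after silencing of the transcription factor KLF5. They were chosen by symbol from a list of 9 (SOX4, SOX5, SOX6, SOX7, SOX9, SOX11, SOX12, SOX13 and SOX15). Of these 9, 7 had a row among the 29185 genes of the expression table, which held 11 SOX genes in all. SOX5 and SOX11 had no row in the table used here and were not analysed here. SKOV3 is an established human ovarian cancer line, and polyA RNA was sequenced from 2 groups of 3 libraries each. The sh-NC libraries came from the control cells (labelled NC, genotype WT), and the sh-KLF5 libraries from cells in which KLF5 was knocked down. Per the study's methods, the knockdown construct was delivered with a lentiviral pLKO vector that carries EGFP and puromycin resistance, and stable lines were selected with puromycin. What the control cells carried is not given in the sources used here. The group name sh-NC is used here for short and says nothing on whether they carried a hairpin. Whether each stable line is a clone or a pool, and whether the 3 libraries came from separate cultures, is not given in the sources used here, so the p-values measure only the spread between these libraries.

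SOX proteins are transcription factors that bend DNA through an HMG box, a domain they share with the sex-determining factor SRY, and they usually act together with a partner protein bound next to them. They are grouped by similarity of that box: SoxC (SOX4, SOX11, SOX12), SoxD (SOX5, SOX6, SOX13), SoxE (SOX9 and its relatives SOX8 and SOX10), SoxF (SOX7, SOX18) and SoxG (SOX15). Members of this family direct cell fate in many tissues, SOX9 among them in cartilage, testis and epithelial progenitors, and SOX4 in progenitor cells of many lineages. SoxD proteins have no activating or repressing domain of their own and work through their partners.

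The start of a conserved stretch of the HMG box shows how alike the genes are whose reads were counted separately. The 30 bases below are coding sequence from GENCODE 29 transcripts on GRCh38, read 5′ to 3′ on the coding strand, and capitals mark bases that differ from SOX9.
SOX9: cggcccatgaacgccttcatggtgtgggcg
SOX4: cgAcccatgaacgccttcatggtgtggTcg
SOX12: AggccGatgaacgcAttcatggtgtggTcg
SOX13: AggcccatgaacgccttcatggtgtgggcC
SOX6: cgAccAatgaaTgcAttcatggtTtgggcA
SOX15: cggccGatgaacgcGttcatggtgtggAGC
These stretches lie at chr17:72121710-72121739 (SOX9, exon 1, plus strand), chr6:21594715-21594744 (SOX4, exon 1, plus), chr20:326048-326077 (SOX12, exon 1, plus), chr1:204123705-204123734 (SOX13, exon 12, plus), chr11:15989067-15989096 (SOX6, exon 14, minus) and chr17:7589497-7589526 (SOX15, exon 1, minus). Over a window of 210 coding bases of the box, SOX4 and SOX12 were the closest pair by bases, with 85.24% identical bases and 62 of 70 identical residues. SOX6 and SOX13 shared 79.52% of the bases and 65 of 70 residues, and the least alike pair by bases was SOX6 and SOX15, with 54.76%, while by residues it was SOX6 and SOX9, with 34 of 70. The longest run of identical bases between any pair in this window was 33, between SOX4 and SOX12, and the rest of the transcripts was not compared.

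The libraries held between 15852319 and 17543896 recovered reads. KLF5 had 4371, 4425 and 4494 normalized counts (reads divided by a scaling factor per library) in the sh-NC libraries and 1745, 1440 and 1436 in the sh-KLF5 libraries, a mean of 34.8% of the control mean. Its log2 fold change was -1.53 ± 0.12 (SE, limma adjusted p = 2.47e-07), so the targeted gene fell in all 3 libraries labelled as knockdown. ERBB2, which this line is known to carry at high level, had 1271 to 2081 reads, and the Müllerian factor PAX8 had 248 to 419. Of the other ovarian markers, WT1 had no row in the table used here. MUC16 fell by 1.54 on the log2 scale (limma adjusted p = 0.00737). Among 6 epithelial markers, 3 were lower at a limma adjusted p under 0.05, beside 6.85% of the 15803 genes tested. None was higher, beside 6.04%. The lower ones were KRT7, KRT8 and KRT18, with log2 fold changes of -0.78, -1.17 and -0.64 (limma adjusted p of 0.00112, 4.35e-05 and 0.00343). EPCAM, CDH1 and KRT19 did not pass the test, and KRT19 had at most 17 reads per library. Of 6 immune and endothelial markers, CD3E had no row, PTPRC, CD68 and CDH5 had at most 3 reads per library, VWF had 3 to 10 and PECAM1 had 31 to 75. The sh-KLF5 libraries stood further apart from each other than the sh-NC libraries. The pairwise chi-square divided by its degrees of freedom was 10.44 to 30.43 in sh-KLF5 and 4.325 to 8.408 in sh-NC. Pairs with sh-KLF5 replicate 1 gave 23.53 and 30.43, and replicates 2 and 3 gave 10.44. The part of this spread in the results below was not tested.

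All 7 SOX genes passed the filter on low counts. SOX9 rose most and SOX4 rose by less, and no SOX gene fell by the test. A gene was called when its limma adjusted p was under 0.05 and its log2 fold change was above 1 or below -1. By this rule 1 of the 7, SOX9, was called higher, beside 1.9% of the 15803 genes tested, and 0 were called lower, beside 3.37%. With the adjusted p alone, 2 of the 7, SOX9 and SOX4, were higher, beside 6.04% of all genes, and 0 were lower, beside 6.85%. Also 0 were lower at an unadjusted p under 0.05, in limma, in edgeR and in DESeq2. In 3 of the 7 (SOX4, SOX9 and SOX13) the values of the groups did not overlap, which held for 31.3% of all genes in either direction. The median log2 fold change was 0.26 over the 7 genes, beside -0.0023 over all genes tested. That median is the value of SOX6, the gene with the fewest reads (0.26 ± 0.51, SE, limma adjusted p = 0.793).

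**Figure D1:**
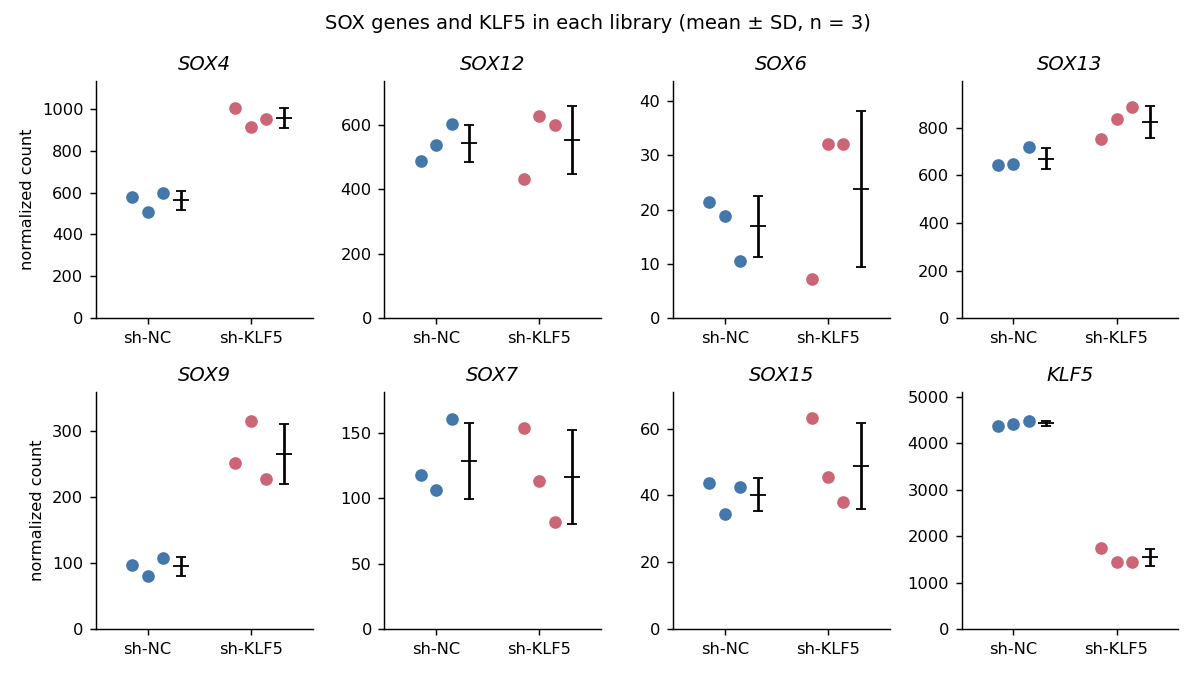
Normalized counts (vertical axes, linear from 0) of the 7 SOX genes and of KLF5 in the 3 sh-NC and the 3 sh-KLF5 libraries, with a point per library and a bar for the mean ± SD. The points of the groups are apart for SOX9, SOX4, SOX13 and KLF5 and overlap for SOX12, SOX6, SOX7 and SOX15.

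SOX9, the SoxE member best known for directing cartilage formation and for marking epithelial progenitor cells, is a gene of 3 exons at chr17:72121020-72126420 on the plus strand. Its normalized count was 96.8, 79.8 and 108 in the sh-NC libraries and 252, 315 and 228 in the sh-KLF5 libraries. Every sh-KLF5 library was above every sh-NC library, and the lowest knockdown value was more than double the highest control value. The mean went from 94.96 ± 14.3 to 265 ± 45.3 (SD, n = 3 each), a ratio of 2.79. The log2 fold change was 1.47 ± 0.19 (SE) with a limma adjusted p of 4.955e-05, and the 95% interval of the fold was 2.10 to 3.64. SOX9 ranked 238 by p among the 15803 genes. The exact two-sided permutation test over the libraries gave p = 0.1, the smallest value that 3 against 3 can give. The values rest on 81 to 104 reads per control library and 227 to 325 per knockdown library, and no exon base of SOX9 overlaps another gene of the annotation.

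SOX4, a SoxC activator found in progenitor cells and raised in many carcinomas, is an intronless gene at chr6:21592768-21598619 on the plus strand. It had 581, 509 and 596 normalized counts in the sh-NC libraries and 1005, 912 and 953 in the sh-KLF5 libraries. The groups were well apart, and the spread within each was small, with a coefficient of variation of 8.25% and 4.87%. The mean went from 562 ± 46.4 to 957 ± 46.6 (SD, n = 3 each), which gave a log2 fold change of 0.77 ± 0.12 (SE, limma adjusted p = 0.000328) and a 95% interval of the fold of 1.43 to 2.03. SOX4 therefore rose but stayed under the fold threshold for a call. Of its exonic bases, 168 are shared with an antisense gene, AL512380.2, which had 0 to 2 reads per library.

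SOX12, the other SoxC gene with a row and the closest relative of SOX4 in the HMG box, is also intronless, at chr20:325595-330224 on the plus strand. Its normalized counts were 487, 538 and 601 in the sh-NC libraries and 431, 626 and 598 in the sh-KLF5 libraries. The groups overlapped, with sh-KLF5 replicate 1 lowest of all 6. The log2 fold change was 0.01 ± 0.15 (SE, limma adjusted p = 0.974), with a 95% interval of -0.31 to 0.33. Without a single library at a time it lay between -0.09 and 0.18, and it turned negative without sh-NC replicate 1 (-0.06), sh-KLF5 replicate 2 (-0.09) or sh-KLF5 replicate 3 (-0.06).

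The SoxC genes were also set against each other within each library, which does not depend on the scaling between libraries. The level of SOX4 over that of SOX12, both per kilobase of exons, was 0.944, 0.749 and 0.786 in the sh-NC libraries and 1.84, 1.15 and 1.26 in the sh-KLF5 libraries. SOX4 was thus below SOX12 in every control library and above it in every knockdown library. The ratio differed by 0.76 on the log2 scale (exact two-sided permutation p = 0.1, the smallest possible). It is made of the same values as the fold changes of SOX4 and SOX12 above and is not a separate result.

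SOX13, a SoxD factor known from gamma-delta T cell development, lies at chr1:204073115-204127743 on the plus strand. It had 645, 647 and 720 normalized counts in the sh-NC libraries and 752, 836 and 886 in the sh-KLF5 libraries. All knockdown values were above all control values, but the gap between the groups was small. Their means were 671 ± 42.8 and 825 ± 67.8 (SD, n = 3 each), a log2 fold change of 0.30 ± 0.12 (SE), and the limma adjusted p of 0.126 did not pass the test. Without sh-KLF5 replicate 1 the log2 fold change was 0.36 and the adjusted p was 0.022, which passes it. It stayed between 0.24 and 0.36 over all alternatives.

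SOX6, the SoxD partner of SOX9 in cartilage, extends over chr11:15966449-16739591 on the minus strand and was the least abundant of the 7. Its reads numbered 23, 19 and 10 in the control libraries and 7, 33 and 32 in the knockdown libraries. The knockdown libraries were split, with replicate 1 below every control library and replicates 2 and 3 above every one. The log2 fold change was 0.26 ± 0.51 (SE, limma adjusted p = 0.793) and its 95% interval ran from -0.83 to 1.35, so differences from 0.564-fold to 2.55-fold were within the interval at this depth. Leaving out sh-KLF5 replicate 1 gave 0.94, and leaving out sh-NC replicate 3, sh-KLF5 replicate 2 or sh-KLF5 replicate 3 gave -0.02, -0.07 and -0.07. Of its exonic bases, 219 are shared with C11orf58 on the opposite strand, which had 2824 to 3749 reads per library. Since the strand setting of the counting is not given in the sources used here, reads of such partners cannot be told apart.

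SOX7, a SoxF factor of endothelial and endodermal development, lies on the minus strand of chromosome 8. Its normalized counts were 118, 106 and 161 in the sh-NC libraries and 154, 114 and 82.2 in the sh-KLF5 libraries. Both groups were widely spread and overlapped, with the highest value in sh-NC replicate 3 and the lowest in sh-KLF5 replicate 3. The log2 fold change was -0.16 ± 0.24 (SE, limma adjusted p = 0.709), and it turned positive without sh-NC replicate 3 (0.0087) or sh-KLF5 replicate 3 (0.06). The values are uncertain for another reason: 39.43% of its exonic bases overlap PINX1 on the same strand, which was not analysed here.

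SOX15, the sole SoxG member, known from muscle progenitors and placenta, lies at chr17:7588178-7590170 on the minus strand. It had 43.8, 34.5 and 42.4 normalized counts in the sh-NC libraries and 63.2, 45.6 and 38.1 in the sh-KLF5 libraries. Replicates 1 and 2 of sh-KLF5 were above every control library, and replicate 3 was within the control range. The log2 fold change was 0.25 ± 0.28 (SE, limma adjusted p = 0.609), with a 95% interval of -0.33 to 0.84, and it lay between 0.06 and 0.42 over all alternatives. Of the exonic bases of SOX15, 15 are shared with MPDU1 on the opposite strand, which had 1507 to 1707 reads per library. As for SOX6, reads of this partner cannot be told apart.

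**Figure D2:**
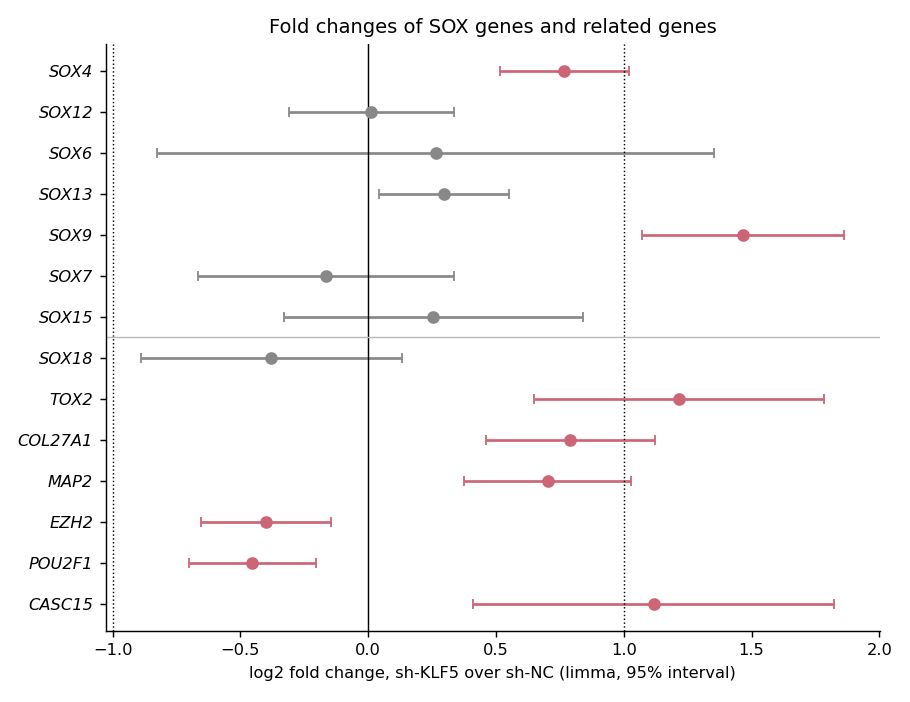
Log2 fold change of sh-KLF5 over sh-NC (horizontal axis) with its 95% interval for the 7 SOX genes (above the grey line) and for 7 related genes, in red where the limma adjusted p was under 0.05. SOX9 at 1.47 is the sole SOX gene whose whole interval lies above the dotted line at 1. The intervals of SOX4 at 0.77 and SOX13 at 0.30 lie above 0, but SOX13 did not pass the adjusted p.

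Levels of different genes were compared per kilobase of merged exon length. In sh-NC the order was SOX12 (117 ± 12.3), SOX4 (96.1 ± 7.93), SOX13 (90.4 ± 5.77), SOX7 (40.0 ± 8.98), SOX15 (26.1 ± 3.26), SOX9 (24.1 ± 3.63) and SOX6 (0.861 ± 0.286), as normalized counts per kilobase (SD, n = 3 each). SOX4 and SOX13 overlapped in their values, and so did SOX15 and SOX9, so the order within these pairs is not separated from the spread. In sh-KLF5 the order was SOX4 (163 ± 7.96), SOX12 (119 ± 22.7), SOX13 (111 ± 9.14), SOX9 (67.3 ± 11.5), SOX7 (36.2 ± 11.2), SOX15 (31.8 ± 8.36) and SOX6 (1.21 ± 0.733). Here SOX12 and SOX13 overlapped, and SOX7 and SOX15 did. SOX9 thus stood in place 6 in the control cells and place 4 in the knockdown cells. With the length of the longest protein-coding transcript in place of the merged exons, an alternative chosen after seeing the data, SOX13 came out at 187.1 and SOX6 at 1.908 in sh-NC, and SOX13 then led the order in both groups.

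**Figure D3:**
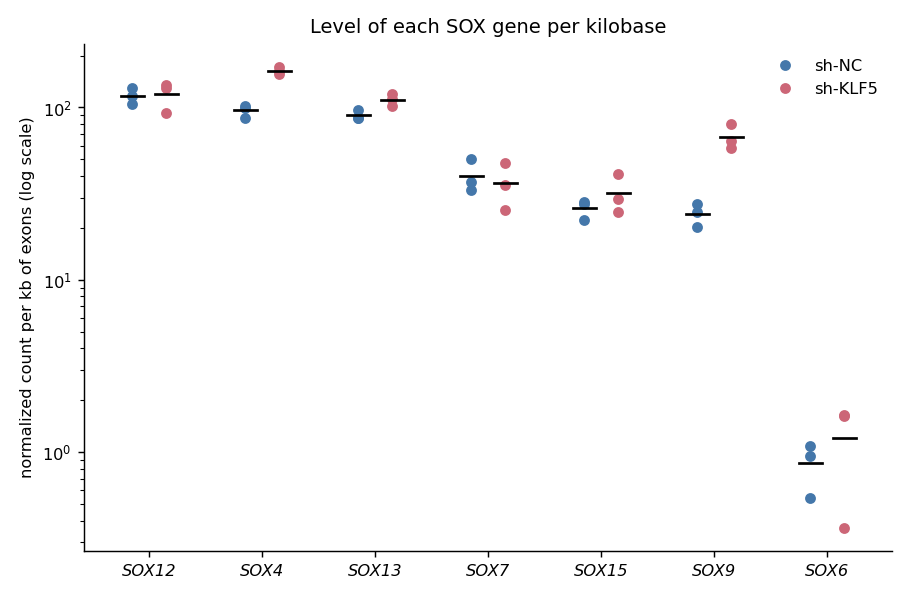
Level of each SOX gene in normalized counts per kilobase of exons (vertical axis, log scale) in the sh-NC and sh-KLF5 libraries, with a point per library and a line at the mean, ordered by the sh-NC mean. SOX9 moves from 24.1 to 67.3 and SOX4 from 96.1 to 163, while SOX6 stays near 1.

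The 7 genes together had 382, 367 and 434 normalized counts per kilobase in the sh-NC libraries and 519, 550 and 521 in the sh-KLF5 libraries. The sum was higher in every knockdown library, by 0.43 on the log2 scale (exact two-sided permutation p = 0.1, the smallest possible). Most of the sum, though not of its rise, came from SOX4, SOX12 and SOX13 in both groups. From sh-NC to sh-KLF5 the mean level went from 96.1 to 163 for SOX4 and from 24.1 to 67.3 for SOX9. It went from 90.4 to 111 for SOX13, from 117 to 119 for SOX12 and from 40.0 to 36.2 for SOX7. The share of SOX9 in the sum was 6.10% ± 0.4996 in the control libraries and 12.7% ± 1.75 in the knockdown libraries, that of SOX4 was 24.4% ± 1.39 and 30.9% ± 2.39, and that of SOX12 was 29.7% ± 2.07 and 22.4% ± 3.89 (SD, n = 3 each). Shares of a sum are bound to each other, so a lower share is not a lower level. SOX9 rose relative to SOX4 as well: their ratio per kilobase was 0.248, 0.233 and 0.270 in the sh-NC libraries and 0.373, 0.514 and 0.355 in the sh-KLF5 libraries, without overlap, a difference of 0.71 on the log2 scale (exact two-sided permutation p = 0.1, the smallest possible). The ratio of SOX9 to SOX13 differed by 1.18 on that scale. The sum and these ratios are made of the same values as the fold changes above and are not separate results.

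**Figure D4:**
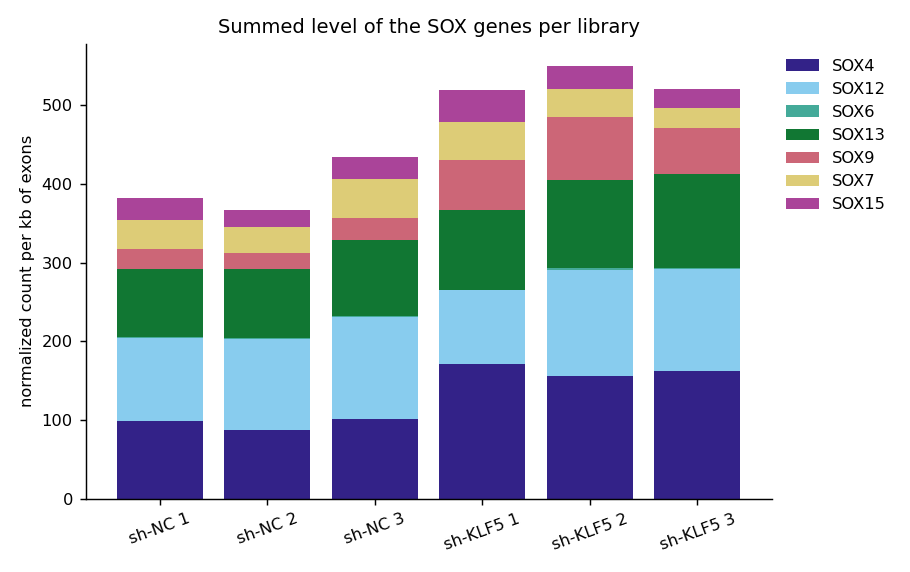
Summed level of the 7 SOX genes in each library, in normalized counts per kilobase of exons (vertical axis, linear from 0), with a stacked segment per gene. The sums run from 367 to 434 in the sh-NC libraries and from 519 to 550 in the sh-KLF5 libraries.

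SOX9 was called higher in all 15 alternatives, with a log2 fold change of 1.34 to 1.57, and SOX4 passed the adjusted p in all 15, with 0.70 to 0.81. The direction of SOX6, SOX7 and SOX12 turned when certain libraries were left out, as given above for each.

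**Figure D5:**
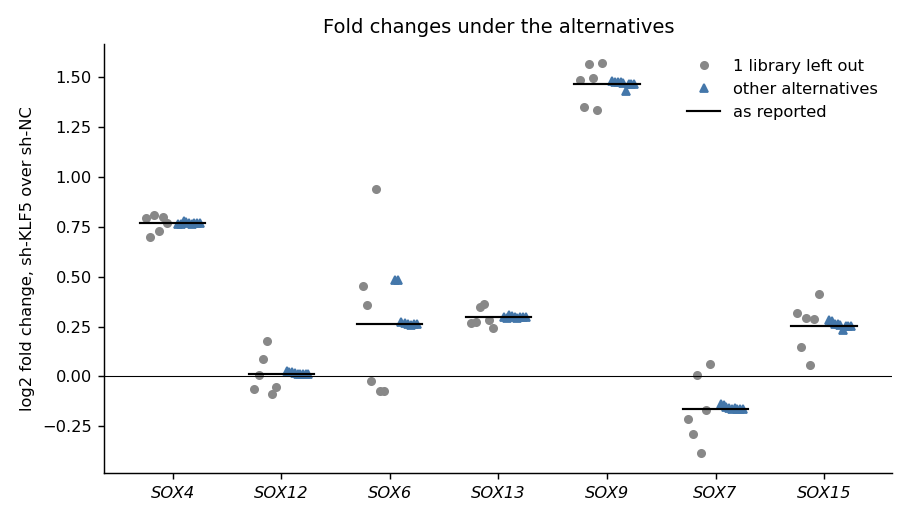
Log2 fold change of sh-KLF5 over sh-NC (vertical axis) of each SOX gene as reported (black line), with each of the 6 libraries left out in turn (grey points) and under the other alternatives (blue triangles). The points of SOX9 stay between 1.34 and 1.57 and those of SOX4 between 0.70 and 0.81, while those of SOX6 run from -0.07 to 0.94.

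Of 10 other SOX genes looked up, 4 had a row and 1 had enough reads for the test. Rows of SOX1, SOX2, SOX3, SOX14, SOX17 and SOX21 were not in the table used here. SOX18, the SoxF relative of SOX7 that acts in vessel development, had 63.3, 63.1 and 90.2 normalized counts in sh-NC and 53.0, 62.1 and 49.1 in sh-KLF5. Its log2 fold change was -0.38 ± 0.24 (SE, limma adjusted p = 0.346) and did not pass the test, although the groups did not overlap. The SoxE relatives of SOX9 were scarce: SOX8 had 29, 7 and 13 reads in sh-NC and 2, 6 and 4 in sh-KLF5, and SOX10 had 19, 11 and 2 against 2, 9 and 4. SOX9 was therefore the SoxE gene with the most reads in all 6 libraries. SOX30, a factor of male germ cells, had at most 2 reads per library.

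Among 11 other factors with an HMG box, 10 had a row, 8 were tested, 1 was called higher (1.9% of all genes) and 0 were called lower (3.37%). The called gene was TOX2, a factor known from lymphoid cells, with 28.9, 54.2 and 55.2 normalized counts in sh-NC and 105, 120 and 89.2 in sh-KLF5. These groups did not overlap, and the log2 fold change was 1.22 ± 0.27 (SE, limma adjusted p = 0.00565). Without sh-NC replicate 1, the lowest of the 6, the log2 fold change was 0.92, under the threshold for a call (adjusted p = 0.0315). The most abundant of the list did not pass the test. They were BBX at -0.11, the repressor CIC at 0.32 and TOX4 at -0.16 (log2 fold changes). TCF7L1 and TCF7L2, which carry the WNT signal on DNA with beta-catenin and were named after their values were seen, were at 0.14 and 0.06, and LEF1 had at most 5 reads per library.

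Genes that SOX9 drives in cartilage mostly had few reads. Of 13, 9 had a row, 3 were tested, 1 had an adjusted p under 0.05 on the higher side (6.04% of all genes) and 0 on the lower side (6.85%). That gene was COL27A1, a fibrillar collagen, with 270, 262 and 220 normalized counts in sh-NC and 368, 515 and 427 in sh-KLF5, a log2 fold change of 0.79 ± 0.16 (SE, limma adjusted p = 0.00232). COL11A2 was at 0.39 (adjusted p = 0.410) and the matrix protein gene MATN3 at -0.66 (adjusted p = 0.102), and COL9A2, COL9A3, COL11A1, HAPLN1, MATN1 and COMP had at most 11 reads per library. Rows of COL2A1, COL9A1, ACAN and CNMD were not in the table used here.

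Of 7 genes reported as targets of SOX4 or SOX11, 6 were tested, 1 was higher (6.04% of all genes) and 1 lower (6.85%) by the adjusted p, and none was called. MAP2, a microtubule protein of neurons that was named after its values were seen, had 659, 669 and 611 normalized counts in sh-NC and 1014, 836 and 1373 in sh-KLF5. It rose by 0.70 ± 0.15 on the log2 scale (SE, limma adjusted p = 0.00543). EZH2, the methyltransferase of Polycomb, fell by 0.40 on that scale (adjusted p = 0.0362), and this passed no longer in 4 of the 6 fits without a library. The log2 fold change was then -0.42, -0.37 and -0.42 without sh-NC replicate 1, 2 and 3 and -0.31 without sh-KLF5 replicate 2, with an adjusted p of up to 0.179. SEMA3C, a secreted guidance protein, was at 0.40 (adjusted p = 0.109), and DICER1, which cuts microRNA precursors, was at -0.23 (adjusted p = 0.254).

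Of 11 partner proteins of SOX factors, 9 had a row, 6 were tested, 0 were higher (6.04% of all genes) and 1 was lower (6.85%) by the adjusted p. POU2F1, an octamer-binding factor, fell by 0.45 ± 0.12 on the log2 scale (SE, limma adjusted p = 0.0164), and this passed no longer without sh-NC replicate 1, sh-NC replicate 2 or sh-KLF5 replicate 2 (adjusted p of 0.0836, 0.130 and 0.0649). The beta-catenin gene CTNNB1 was at 0.03 (adjusted p = 0.920) and the deacetylase gene HDAC1 at 0.0034 (adjusted p = 0.990). PAX6, POU3F1 and POU3F2 had at most 11 reads per library.

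The tested protein-coding genes most like SOX9 over the 6 libraries were NR2F1, PLXNB2 and IER5. Such genes were sought for called SOX genes with a mean of at least 50 normalized counts. NR2F1, an orphan nuclear receptor, had a Pearson r of 0.998 with SOX9 on the log2 scale, with 633, 594 and 644 normalized counts in sh-NC and 964, 1050 and 907 in sh-KLF5. PLXNB2, a semaphorin receptor, had an r of 0.997, and IER5, an immediate early gene, 0.996. The 6 points are the same libraries and fall into the 2 groups, so these values describe the pattern and no p is given. The log2 fold changes of these 3 genes were smaller than that of SOX9, at 0.64, 0.53 and 0.85.

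KLF family proteins bind CACCC boxes and GC boxes, so the letters CACCC and GGGCGG were looked for on both strands in RefSeq promoter windows (GRCh38.p14, 250 bases before to 50 after the start). Matches of the 2 motifs may share letters. The window of SOX4 (chr6:21593501-21593800) held neither, that of SOX12 (chr20:325302-325601) held 2 and 4 matches, and that of SOX13 (chr1:204072865-204073164) held 4 and 1. Of 5 windows of SOX6, 3 held neither, 1 held CACCC and 1 held GGGCGG. SOX9 and SOX15 had no entry, and the window of SOX7 is not reported here. Of 35116 windows, 59.87% held CACCC and 44.95% held GGGCGG. A match is a description of letters in this window and says nothing on binding, and GENCODE 29 places the start of SOX4 upstream of its window.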

How the data were processed

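RNA was measured in 6 libraries of SKOV3 cells, 3 sh-NC and 3 sh-KLF5, assigned by sample title. The authors deposited 1 table of normalized counts (a signal: reads per gene divided by 1 factor per library) together with group means, fold changes and p-values of their own, which were not used. The submitters' processing notes name HISAT2 2.0.5, featureCounts 1.5.0-p3, DESeq2 1.20.0 and hg38, without roles. Gene coordinates and exon lengths of all 29185 genes matched GENCODE 29. The members and lists were chosen with earlier results of these data known.

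Reads were recovered as multiples of the smallest nonzero value in a library, and 100% of values were whole within 0.001. Genes passing filterByExpr (minimum count 10, 15803 genes) were compared with limma 3.58.1 (trend, robust empirical Bayes) in R 4.3.3 on log2(normalized count + 1), with Benjamini-Hochberg adjustment over all of them. The 95% intervals come from the same fit, and this scale understates the change of low genes. A count of 0 allows up to 3 reads, for counting error only. The method was tested on simulated data. Alternatives were edgeR 4.0.16 and DESeq2 1.42.0 on recovered reads, TMM or library-size scaling, pseudocounts 0.5 and 5, other filters, unadjusted p, a replicate block, and leaving out each library.

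The genes named were all listed SOX genes, KLF5, other SOX genes with a row, and from each list those called plus up to 3 with the most reads. The genes most like a called SOX gene, and further genes noted in the text, were added to these.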

Additional observations from a re-analysis of the deposited data

How the results depend on the processing

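The numbers of SOX genes called higher (1), called lower (0), higher by adjusted p (2) and lower by adjusted p (0) were within 1.5 times of these values in every alternative run. The number of genes called lower was 533, and it was 811 with no filter on low values and 231 when every library had to have 10 reads or more, which tests fewer genes. SOX6 could not be tested under that filter. In the fit with a replicate block, 327 genes were called higher and 567 lower, and no call on a SOX gene changed. In their deviations from the group means, libraries with the same number correlated at 0.059, 0.033 and 0.050. Those with different numbers correlated at -0.057 to -0.0011. All same-number values were above 0 and all others below 0, but all were small. These values do not settle whether the numbers pair the samples, and the main fit did not pair them. Over the 6 fits that each lack a library, SOX6 ran from a log2 fold change of -0.0738 to 0.9382, SOX7 from -0.3866 to 0.0616 and SOX12 from -0.0887 to 0.1796. The cause of these turns was not tested. No scaling moved the median of all genes by more than 0.1 on the log2 scale. SOX6 had 7 to 33 reads per library, the fewest of the 7 genes.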

Other observations

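Noncoding genes next to SOX genes were looked up from a list of 9, of which 6 had a row, 2 were tested, 1 was called higher (beside 1.9% of all genes tested) and 0 were called lower (beside 3.37%). CASC15, a long noncoding RNA gene neighbouring SOX4, had 17.7, 13.8 and 23.3 normalized counts in the sh-NC libraries and 52.0, 34.0 and 36.1 in the sh-KLF5 libraries. The groups did not overlap, and the log2 fold change was 1.12 ± 0.33 (SE, limma adjusted p = 0.0362). This call rests on few reads and was lost in 5 of the 6 fits without a library (all but sh-NC replicate 3), with a log2 fold change between 0.93 and 1.30 over the 6 fits. It was also lost with a pseudocount of 5, where the log2 fold change was 0.97, under the fold threshold. LINC00511, which lies beyond the 3′ end of SOX9 on the same chromosome, was at -0.31 ± 0.44 (SE, limma adjusted p = 0.707). SOX9-AS1 had 0 reads in every sh-NC library and 1, 5 and 0 in the sh-KLF5 libraries. NRSN2-AS1, an antisense gene whose span overlaps that of SOX12 without a shared exonic base, had 23, 25 and 22 reads in sh-NC and 13, 13 and 11 in sh-KLF5, and its log2 fold change of -0.86 ± 0.37 did not pass the test (adjusted p = 0.146).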
